A study of Mus musculus with 19 samples.

Results

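The mitosis and G2/M genes examined here are 39 genes that cells switch on to enter mitosis, build the spindle, separate chromosomes and divide, of which 37 were measured among the 22180 genes of the array that had a probe set with a single gene symbol. The members were chosen by function, as a list of symbols, with earlier results of these data known. Each measured member was read by 1 probe set. Ccnb1 was named by no probe set, and Ncapg shared its probe set with another symbol, so neither has a level here. The study compared 7 angiosarcomas, malignant tumors of vessel-lining cells, with normal tissue on 19 Affymetrix arrays, 1 per sample. The tumors came from aP2-Cre/+;DicerFlox/- mice, which carry Cre recombinase under the aP2 (Fabp4) promoter together with a floxed and a null allele of Dicer, the nuclease that makes microRNAs. The reference tissues were 4 aortas, 4 quadriceps femoris muscles and 4 sternocleidomastoid muscles, all from wild type mice with neither the Cre nor the Dicer alleles. All mice were of mixed C57Bl/6 and 129X1/SvJ background, and the labels give no age, sex, batch or animal. Tissue and genotype therefore changed together in every tumor comparison and cannot be told apart.

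Cyclin and kinase complexes drive a cell from G2 into mitosis, kinetochores tie each chromosome to spindle microtubules, a checkpoint delays anaphase until every kinetochore is attached, and a midzone of overlapping microtubules then guides cytokinesis. Most of the genes involved are transcribed in a wave late in the cell cycle and are silent in resting cells, so in adult vessel and muscle, where most cells have left the cycle, their RNA is scarce. Promoters of this wave often carry a CHR element, which the MuvB complex binds together with B-Myb and FOXM1 in cycling cells or as part of the repressive DREAM complex in resting cells, and a CCAAT box bound by NF-Y.

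Sequences upstream of the members are shown because these elements recur in the promoters of the list. RefSeq promoter windows (GRCm38.p6, 250 bases before to 50 after the gene start) were found for 32 of the members, 34 windows in all because Ect2 and Prc1 have a pair each. These include the windows of Ccnb1 and Ncapg, which have no measured level. No window was matched for Incenp, Aurkb, Foxm1, Ccna2, Tpx2, Kif20a and Cdc25c. The 5 members with the largest difference between tumors and aortas among those with a single window are printed, with Cenpa, which had the smallest difference, and Mad2l1, which had neither motif. Each stretch runs 5′ to 3′ on the strand of the gene, from 150 bases before to 30 after the start. Capitals mark the CHR motif, TTTGAA or TTCGAA, and the CCAAT box on either strand, so that TTCAAA and ATTGG are the same motifs read from the other strand.
Cdk1: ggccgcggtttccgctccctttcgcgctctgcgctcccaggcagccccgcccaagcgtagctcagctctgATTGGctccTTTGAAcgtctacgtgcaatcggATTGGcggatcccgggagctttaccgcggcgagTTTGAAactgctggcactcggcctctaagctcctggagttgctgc
Top2a: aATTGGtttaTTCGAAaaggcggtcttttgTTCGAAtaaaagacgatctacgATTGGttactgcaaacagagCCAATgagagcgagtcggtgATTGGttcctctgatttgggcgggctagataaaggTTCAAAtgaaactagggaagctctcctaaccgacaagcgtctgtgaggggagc
Mki67: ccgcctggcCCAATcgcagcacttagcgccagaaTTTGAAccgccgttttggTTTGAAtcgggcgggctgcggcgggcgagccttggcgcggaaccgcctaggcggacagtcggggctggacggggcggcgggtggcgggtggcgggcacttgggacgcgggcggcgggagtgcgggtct
Kif23: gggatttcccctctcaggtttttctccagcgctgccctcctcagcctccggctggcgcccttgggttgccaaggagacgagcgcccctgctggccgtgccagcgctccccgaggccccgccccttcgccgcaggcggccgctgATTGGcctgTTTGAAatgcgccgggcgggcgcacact
Ccnb2: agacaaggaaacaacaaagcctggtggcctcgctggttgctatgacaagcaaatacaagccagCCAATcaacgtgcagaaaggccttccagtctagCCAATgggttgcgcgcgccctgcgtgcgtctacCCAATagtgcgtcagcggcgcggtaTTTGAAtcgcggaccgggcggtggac
Cenpa: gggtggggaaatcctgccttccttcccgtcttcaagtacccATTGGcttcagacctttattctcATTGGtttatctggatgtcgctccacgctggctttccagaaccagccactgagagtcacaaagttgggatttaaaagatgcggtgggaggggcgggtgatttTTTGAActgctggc
Mad2l1: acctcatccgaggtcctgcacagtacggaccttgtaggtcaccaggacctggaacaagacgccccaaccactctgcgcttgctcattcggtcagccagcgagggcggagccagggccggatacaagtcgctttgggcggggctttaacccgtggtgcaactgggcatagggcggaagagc

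These stretches lie, in GRCm38.p6, for Cdk1 at chr10:69352883-69353062 on the minus strand, Top2a at chr11:99024160-99024339 on the minus strand, Mki67 at chr7:135716350-135716529 on the minus strand, Kif23 at chr9:61946770-61946949 on the minus strand, Ccnb2 at chr9:70421525-70421704 on the minus strand, Cenpa at chr5:30666736-30666915 on the plus strand and Mad2l1 at chr6:66535071-66535250 on the plus strand. The stretch shown for Ccnb2 has 3 CCAAT boxes at -87, -54 and -21 from the start, followed by TTTGAA at 5. That of Cdk1 has TTTGAA at -71 and -15 beside CCAAT boxes at -80 and -48. Over all member windows, TTTGAA was present in 26 of 34 (76.5%), against 17.9% of all 32851 windows of the same length. TTCGAA was present in 3 member windows (8.82%), against 1.56% of all windows. Either CHR spelling lay in the last 100 bases, from 50 before to 50 after the start, in 25 member windows, against 5.31% of all windows. The CCAAT box was present in 25 member windows (73.5%), against 37.4% of all windows, and 17 member windows (50%) held at least 2 boxes, against 11.7%. Both motifs occurred in 23 member windows (67.6%), against 7.52% of all. Nuf2, Nusap1, Ncaph, Mad2l1 and Birc5 held neither set of letters in the window. These matches describe letters in a fixed window, and binding was not measured.

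Every one of the 37 measured members was higher in tumors than in aortas and higher in tumors than in muscle. The median difference from aorta was 1.85 log2 units, with a range of 0.41 for Cenpa to 3.58 for Ccna2, while the median over all genes was -0.02. Against muscle, taken as the mean of the quadriceps and sternocleidomastoid groups, the median was 1.92, with a range of 0.83 for Aurka to 3.88 for Cdk1, and the median over all genes was -0.04. All 37 passed the limma test (adjusted p under 0.05 over all 22180 genes) as higher in both comparisons, where 18.6% of all genes did so against aorta and 25.3% against muscle. A difference of at least 2-fold was reached by 36 members against aorta, where 5.69% of all genes reached it, and by 36 against muscle, where 9.65% did. Every tumor lay above every aorta for 36 members (12.2% of all genes), and every tumor lay above every muscle sample for 36 members (14.6% of all genes). The comparisons share the tumor arrays and are not independent of each other. In tissue of mixed cells, a higher share of dividing cells and more RNA per dividing cell cannot be told apart. Since the labels do not show that samples came from separate animals, p-values refer to the spread between these samples. For each gene that spread was pooled over the 4 groups.

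**Figure D1:**
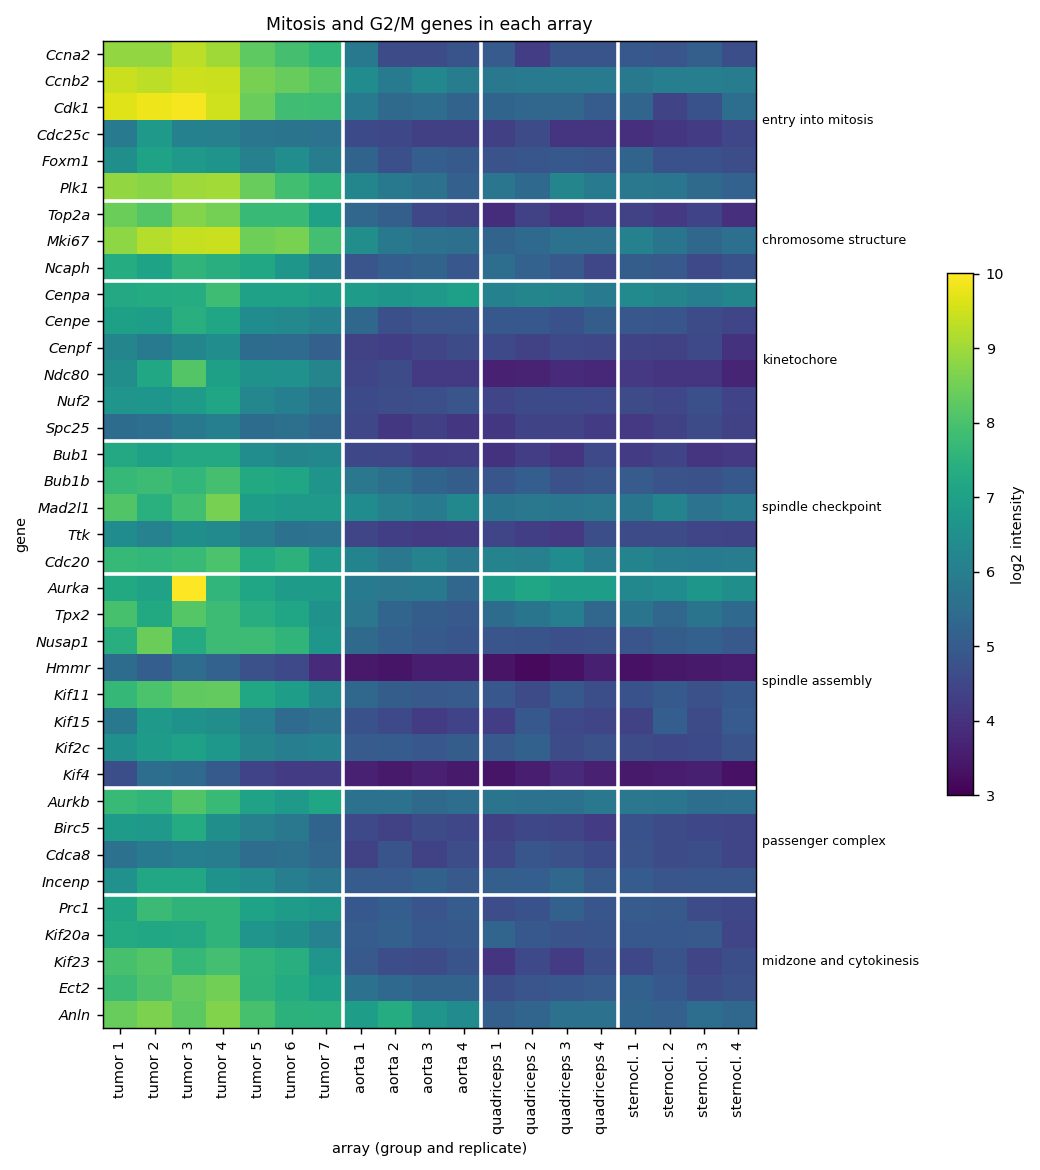
Log2 intensity of each of the 37 measured members (down the page, by role) in each of the 19 arrays (across, tumors first, then aortas, quadriceps and sternocleidomastoid muscles). The 7 tumor columns are lighter than the columns of normal tissue for nearly all genes, with tumor 7 the darkest tumor for 31 of them, and colours compare arrays for 1 gene and not genes with each other.

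Among the genes for entry into mitosis, all 6 measured members were higher in tumors, with a median difference of 2.81 log2 units from aorta and 2.94 from muscle. Cdk1, the kinase that triggers mitosis, had a log2 intensity of 7.84 at the lowest, 9.49 at the median and 9.89 at the highest in tumors. In aortas Cdk1 read 5.88, 5.42, 5.49 and 5.22, in quadriceps 5.27, 5.31, 5.30 and 5.04, and in sternocleidomastoid 5.28, 4.44, 4.77 and 5.54. The lowest tumor thus lay well above the highest normal sample, and the differences were 3.49 ± 0.37 (SE) from aorta (limma adjusted p = 4.6e-07) and 3.88 ± 0.30 from muscle (adjusted p = 1.89e-09). Ccna2 encodes cyclin A2, a cyclin of S phase and G2, and had the largest difference from aorta in the list. Its level ran from 7.65 over a median of 8.86 to 9.31 in tumors, against 5.84, 4.61, 4.63 and 4.83 in aortas, where the first sample stood more than 1 unit above the others. The Ccna2 difference from aorta was 3.58 ± 0.28 (adjusted p = 1.6e-08), rank 14 among all genes by size of increase. Ccnb2, a mitotic cyclin and partner of Cdk1, averaged 8.96 ± 0.57 in tumors (SD, n = 7), 6.13 ± 0.25 in aortas, 5.87 ± 0.05 in quadriceps and 5.95 ± 0.08 in sternocleidomastoid (n = 4 each). Plk1, the polo kinase that acts from mitotic entry to cytokinesis, was 6.90-fold higher in tumors than in aorta and 7.07-fold higher than in muscle. Cdc25c, the phosphatase that activates Cdk1, and Foxm1, a transcription factor of the late cell cycle, had the smallest differences of this group, at 1.55 ± 0.17 and 1.48 ± 0.17 from aorta. Cdc25c read 6.79 in tumor 2, while the next tumor read 6.07.

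The 3 measured genes of chromosome structure had a median difference of 2.96 log2 units from aorta and 3.26 from muscle. Top2a, the topoisomerase that untangles sister chromatids, read 7.02 in the lowest tumor, 8.13 at the median and 8.69 in the highest, against 5.32, 5.11, 4.50 and 4.37 in aortas. In muscle it read 3.92, 4.38, 4.09 and 4.28 in quadriceps and 4.36, 4.17, 4.42 and 3.97 in sternocleidomastoid. Top2a was 9.30-fold higher in tumors than in aorta (limma adjusted p = 1.69e-08) and 14.4-fold higher than in muscle (adjusted p = 1.52e-11), with no overlap in either comparison. Mki67, the coat protein of mitotic chromosomes that gives the Ki-67 proliferation stain, averaged 8.83 ± 0.55 in tumors, 5.87 ± 0.41 in aortas, 5.47 ± 0.20 in quadriceps and 5.68 ± 0.31 in sternocleidomastoid. Ncaph, a subunit of condensin, differed less, by 2.03 ± 0.23 from aorta and 2.12 ± 0.19 from muscle.

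Kinetochore genes had a median difference of 1.58 from aorta and 1.66 from muscle over 6 members. Ndc80 and Nuf2 are partners in the complex that grips microtubules, and Spc25 belongs to the same complex. Ndc80 read 6.18 in the lowest tumor, 6.60 at the median and 8.12 in the highest, against 4.45, 4.62, 4.19 and 4.19 in aortas, with a difference of 2.50 ± 0.25 (limma adjusted p = 2.23e-07). Nuf2 differed from aorta by 1.77 ± 0.19 and Spc25 by 1.34 ± 0.12. Cenpe, a kinetochore motor, and Cenpf, a large protein of the outer kinetochore, differed from aorta by 1.81 ± 0.21 and 1.40 ± 0.19. Cenpa, the histone variant that marks centromeres, had the smallest difference from aorta of all members. Its tumors read 6.87 at the lowest, 7.22 at the median and 7.84 at the highest, and its aortas read 6.85, 6.70, 6.75 and 6.96, so that the aorta 4 sample lay within the tumor range. The Cenpa difference from aorta was 0.41 ± 0.14 (adjusted p = 0.024). It did not pass when the arrays of the compared groups alone were fitted (adjusted p = 0.0706), without aorta 2 (0.37, adjusted p = 0.073) or without aorta 3 (0.39, adjusted p = 0.0636). In muscle Cenpa was lower still, at 6.08 ± 0.13 in quadriceps and 6.19 ± 0.13 in sternocleidomastoid, and tumors exceeded muscle by 1.09 ± 0.11 (adjusted p = 9.9e-08) with no overlap.

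The 5 genes of the spindle checkpoint differed from aorta by a median of 1.79 and from muscle by 1.68. Bub1, a checkpoint kinase at kinetochores, read 6.20 in the lowest tumor, 7.02 at the median and 7.24 in the highest, against 4.53, 4.49, 4.26 and 4.26 in aortas, and was 5.34-fold higher (limma adjusted p = 2.1e-08). Bub1b, which encodes the checkpoint protein BubR1, was 4.05-fold higher than in aorta and 5.88-fold higher than in muscle. Ttk, the Mps1 kinase that starts checkpoint signalling, differed from aorta by 1.79 ± 0.15. Cdc20, the activator of the anaphase-promoting complex that the checkpoint holds back, differed by 1.55 ± 0.17. Mad2l1 encodes Mad2, which binds Cdc20, and its tumors were spread widely, with 6.78 at the lowest, 7.44 at the median and 8.57 at the highest. Mad2l1 in aortas read 6.42, 6.06, 5.91 and 6.26, so the closest samples of the groups were 6.78 and 6.42, and the difference was 1.34 ± 0.27 (adjusted p = 0.000583).

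Spindle assembly genes, 8 in number, had a median difference of 1.72 from aorta and 1.62 from muscle. Kif11, the kinesin that pushes spindle poles apart, read 6.36 in the lowest tumor, 7.67 at the median and 8.33 in the highest, against 5.34, 5.07, 4.96 and 5.02 in aortas. It was 5.41-fold higher in tumors than in aorta (limma adjusted p = 1.41e-06) and 6.56-fold higher than in muscle. Kif15, a kinesin that shares the work of Kif11, differed from aorta by 1.61 ± 0.22. Nusap1, a microtubule-binding protein of the spindle, had the largest difference from aorta of this group at 2.47 ± 0.21, followed by Kif11 at 2.44 ± 0.28 and Tpx2, the activator of Aurora A, at 2.19 ± 0.24. Kif2c, a microtubule-depolymerising kinesin, differed by 1.48 ± 0.17. Hmmr, a spindle protein and hyaluronan receptor, and Kif4, a chromosome-bound kinesin, averaged 4.91 ± 0.59 and 4.78 ± 0.54 in tumors, below the lowest array median of 5.35, while their differences from aorta of 1.40 ± 0.22 and 1.20 ± 0.21 still passed (adjusted p = 5.74e-05 and 0.000134).

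Aurka, the Aurora A kinase that matures spindle poles, stood apart from the rest of the list. Its tumors read 7.27, 7.04, 10.00, 7.61, 7.14, 6.86 and 6.85 in order of their number, so that 1 tumor, tumor 3, lay far above the others. In aortas Aurka read 5.90, 5.78, 5.82 and 5.31. Quadriceps read 6.85, 7.14, 6.91 and 6.89, and sternocleidomastoid 6.27, 6.40, 6.70 and 6.50. Aorta was thus the lowest tissue for Aurka, and the quadriceps samples overlapped the tumors. The difference from aorta was 1.84 ± 0.41 (limma adjusted p = 0.00145), and without tumor 3 it was 1.43 (adjusted p = 5.66e-07). Against muscle it was 0.83 ± 0.34 (adjusted p = 0.0481), and without tumor 3 it was 0.42 (adjusted p = 0.00747). With each of the 19 samples left out in turn, the muscle call was lost in 14 cases (adjusted p up to 0.0778). It was also lost with median centring and quantile normalization. Aurka differed from quadriceps alone by 0.59 (adjusted p = 0.269) and from sternocleidomastoid alone by 1.07 (adjusted p = 0.0395).

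Genes that lie next to Aurka on chromosome 2 were also high in tumor 3, a comparison chosen after the value of tumor 3 was seen. Of the 80 nearest genes with a median of at least 5.48 in the other tumors, 40 on each side, 48 (60%) were higher in tumor 3 than in every other tumor, against 24.5% of all 12830 genes of that brightness. A margin of at least 1 log2 unit over the highest other tumor was reached by 31 of the 80 (38.8%), against 0.405% of those 12830 genes, which is 52 genes in all with Aurka itself. The median excess of tumor 3 over the median of the other tumors was 0.70 among these neighbours and 0.06 over all genes of that brightness. Aurka itself exceeded that median by 2.91. Its immediate neighbour Cstf1, an RNA cleavage factor, read 10.5 in tumor 3, against 7.61 in the highest other tumor. Nelfcd, a subunit of the negative elongation factor, read 10.1, against 7.62 in the highest other tumor. The genes above that margin ran from Ncoa3, 31 places to one side, to Gm14322, 30 places to the other. DNA copy number was not measured. Cdc25c was the other member with a tumor marked by Dixon's test, which compares the highest and lowest value with the rest of the group. Of its 80 neighbours, 1 (1.25%) passed the same margin in tumor 2, against 1.02% of all genes of that brightness.

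**Figure D2:**
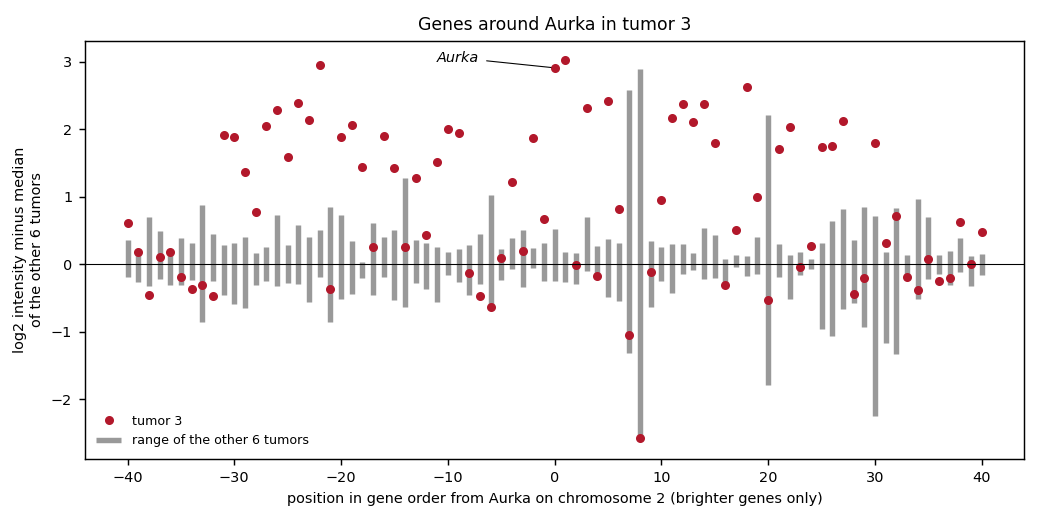
Log2 intensity in tumor 3 minus the median of the other 6 tumors (points) for Aurka and its 80 neighbours, by place in gene order along chromosome 2, with the range of the other tumors as grey bars. Points between 31 places on one side and 30 on the other include the 31 neighbours that exceed the highest other tumor by at least 1 unit, with Aurka at 2.91.

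The 4 genes of the chromosomal passenger complex, which corrects faulty kinetochore attachments, differed from aorta by a median of 1.66 and from muscle by 1.63. Aurkb, its kinase Aurora B, averaged 7.44 ± 0.47 in tumors, 5.55 ± 0.09 in aortas, 5.69 ± 0.08 in quadriceps and 5.66 ± 0.12 in sternocleidomastoid. Birc5, which encodes survivin, ranged more widely among tumors, with 5.26 at the lowest, 6.50 at the median and 7.32 at the highest, against 4.55, 4.35, 4.63 and 4.49 in aortas. The scaffold Incenp and the borealin gene Cdca8 differed from aorta by 1.47 ± 0.21 and 1.16 ± 0.13. All 4 members were higher in tumors without overlap, both against aortas (12.2% of all genes) and against muscles (14.6% of all genes).

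Genes of the midzone and of cytokinesis, 5 in number, differed from aorta by a median of 2.26 and from muscle by 2.75. Kif23, the kinesin of the centralspindlin complex, read 6.66 in the lowest tumor, 7.66 at the median and 8.13 in the highest, against 4.95, 4.67, 4.62 and 4.82 in aortas. It was 7.23-fold higher in tumors than in aorta (limma adjusted p = 4.9e-09) and 8.68-fold higher than in muscle (adjusted p = 1.09e-11). Ect2, the exchange factor that turns on RhoA at the cleavage furrow, was 5.35-fold higher than in aorta. Prc1, which bundles midzone microtubules, was 4.79-fold higher and Kif20a, a midzone kinesin, 3.74-fold higher. Anln encodes anillin, the scaffold of the contractile ring, and had the smallest difference of this group from aorta, 1.30 ± 0.23 (adjusted p = 0.000125), but a difference from muscle of 2.75 ± 0.19. Its aortas read 6.90, 7.33, 6.66 and 6.37, close beneath the lowest tumor at 7.46, while its muscle samples lay between 5.12 and 5.63.

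**Figure D3:**
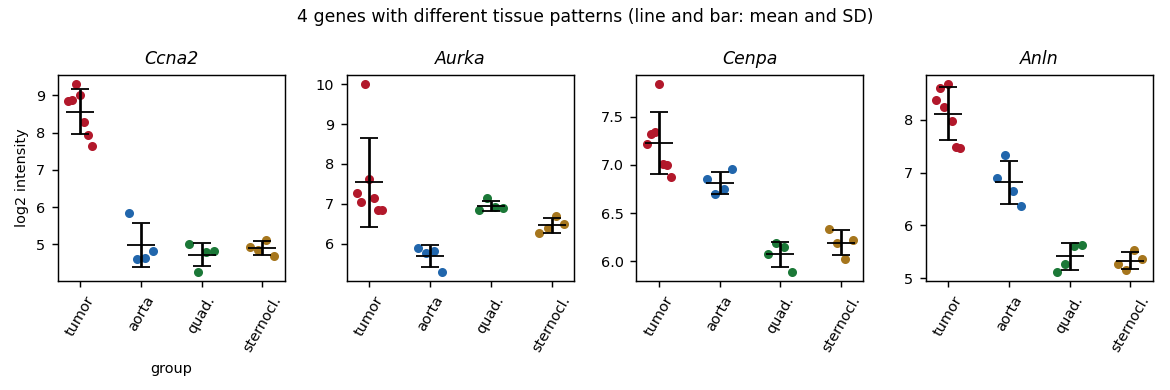
Log2 intensity of Ccna2, Aurka, Cenpa and Anln in each sample of the tumor, aorta, quadriceps and sternocleidomastoid groups (points), with the mean and SD of each group (line and bar, n = 7 tumors and 4 samples in each normal group). Ccna2 separates the tumors widely, Aurka stands at 10.00 in tumor 3 with quadriceps overlapping the tumors, Cenpa tumors overlap the aortas, and Anln runs from tumor over aorta to muscle.

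**Figure D4:**
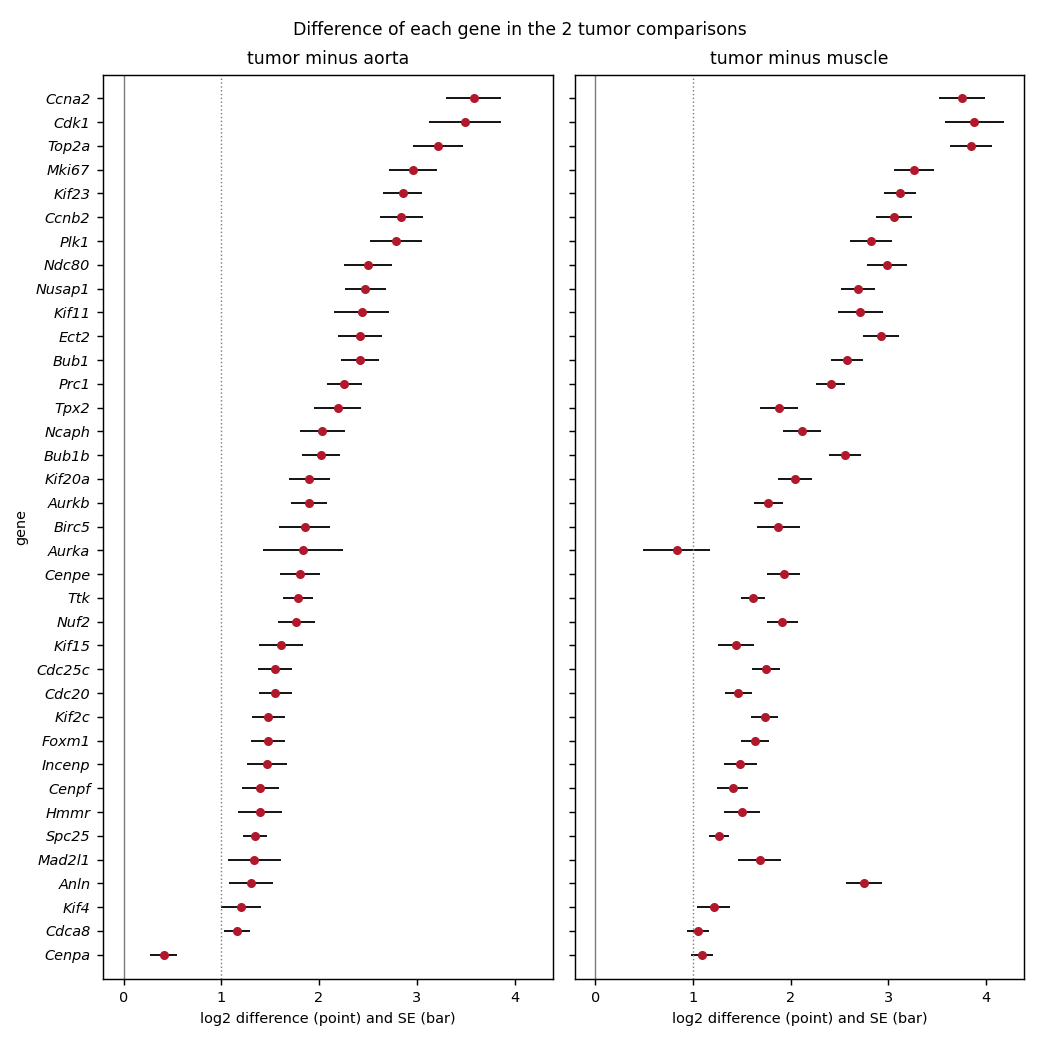
Difference of each member between tumors and aortas and between tumors and muscles, in log2 units (points) with SE (bars), ordered by the difference from aorta, with dotted lines at a 2-fold difference. All points lie above 0, with Cenpa the lowest against aorta at 0.41 and Aurka the lowest against muscle at 0.83.

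Among the normal tissues most members were dim. Their group mean lay below the lowest array median of 5.35 for 25 of 37 members in aorta, 27 in quadriceps and 28 in sternocleidomastoid, for 24 of them in all 3 tissues, and for 2 in tumors. No detection call came with the values, so whether these signals stood above background is not known. Aorta exceeded muscle for 3 members (17.0% of all genes were higher by the same test) and was below it for 0 members (15.3% of all genes were lower). These were Anln (1.44, limma adjusted p = 3.56e-05), Cenpa (0.68, adjusted p = 0.000506) and Bub1b (0.54, adjusted p = 0.0359). The count became 6, with 5 higher and 1 lower, when tumor 3 was left out, and 9, with 8 higher and 1 lower, when only the compared groups were fitted. Shares of all genes in these refits are not given here. The main fit pooled the spread of all groups, and the median member SD was 0.51 in tumors and 0.17 to 0.18 in normal groups. The part of this pooling in the counts was not tested. Bub1b did not pass in 6 of the 19 fits that left out 1 sample (adjusted p up to 0.151, without aorta 1), with median centring (0.0654) or quantile normalization (0.0576), or against quadriceps (0.0835) or sternocleidomastoid (0.0725) alone. With all samples, 6 members had an unadjusted p under 0.05, and the share of all genes at that cutoff is not given here. Anln alone was at least 2-fold higher in aorta, as were 4.75% of all genes. All aortas lay above all muscle samples for Anln, Cenpa, Ndc80 and Ect2 (14.6% of all genes), and below them for Aurka (12.6% of all genes). Aurka lay lower in aorta, at 0.499 of its muscle level (adjusted p = 0.0642), and this passed when tumor 3 was left out of the fit (adjusted p = 1.47e-05). The median over the members was 0.15. Between sternocleidomastoid and quadriceps, 0 of 37 members differed by limma, where 0.234% of all genes were higher and 0.198% lower, and 0 members had an unadjusted p under 0.05. The muscles did not overlap for Nusap1, higher in sternocleidomastoid (4.0% of all genes), and for Aurka, lower there (3.6% of all genes).

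Aorta 1 was the highest aorta for 24 of the 37 members, aorta 2 for 5, aorta 3 for 3 and aorta 4 for 5. The mean over the members was 5.26 in aorta 1, 5.07 in aorta 2, 4.99 in aorta 3 and 4.95 in aorta 4. Aortas 1 and 2 also had the highest means of the B cell markers, at 7.10 and 6.82, with 5.32 in aorta 3 and 5.83 in aorta 4. The T and NK cell markers had the same order, at 6.03, 5.83, 4.95 and 5.24 in aortas 1 to 4. The part of these cells in the member values was not tested. With aortas 3 and 4 alone, a choice made after seeing the data, 36 members were higher in tumors, the exception being Cenpa (limma adjusted p = 0.153). The share of all genes higher in that fit is not given here.

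In log2 values, tumors differed from each other in these genes more than normal samples did. Most members were dim in normal tissue, with group means below the lowest array median for 25 to 28 of 37, against 2 in tumors. Spread was not compared at matched brightness. A member's SD had a median of 0.51 in the tumor group, while it was 0.18 in aorta, 0.18 in quadriceps and 0.17 in sternocleidomastoid, and the tumor SD exceeded the aorta SD for all 37 members, as it did for 67.6% of all genes. Over all genes the median SD was 0.21 in tumors and 0.16 in aortas, and 10.8% of genes had a tumor SD at or above the median of the members. The differences ran in a common order. The mean over the members was 7.24, 7.37, 7.59, 7.48, 6.82, 6.64 and 6.35 in tumors 1 to 7, against 4.95 to 5.26 in aortas. Tumor 3 was the highest for 16 members, tumor 4 for 13, tumor 2 for 7 and tumor 1 for 1. Tumor 7 was the lowest for 31 members and tumor 6 for the other 6.

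Tumors 1 to 4 carry title codes that precede those of the normal tissues, and tumors 5 to 7 carry codes that follow them. The labels do not say what the codes mark. For 30 of the 37 members (81.1%) every one of tumors 1 to 4 lay above every one of tumors 5 to 7, where 4.67% of all genes did so, and 0 members showed the opposite, where 4.45% of all genes did. The median member difference between tumors 1 to 4 and tumors 5 to 7 was 0.83 log2 units, with a range of 0.25 for Spc25 to 1.69 for Cdk1, and the median over all genes was -0.02. After Cdk1 came Kif11 at 1.27, Mad2l1 at 1.17 and Birc5 at 1.16. Ncaph, Ndc80, Spc25, Aurka, Tpx2, Nusap1 and Kif15 did not separate the sets of tumors. Both sets stood above normal tissue. With tumors 1 to 4 alone, 37 members passed against aorta with a median of 2.28 and 37 against muscle with a median of 2.30. With tumors 5 to 7 alone, 36 passed against aorta with a median of 1.39 and 36 against muscle with a median of 1.44. Shares of all genes that passed in these subset fits are not given here. The calls lost with tumors 5 to 7 were Cenpa against aorta (0.14, adjusted p = 0.353) and Aurka against muscle (0.24, adjusted p = 0.149). This order among tumors is a description without a test, and a batch and the tumors' own levels cannot be told apart here.

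**Figure D5:**
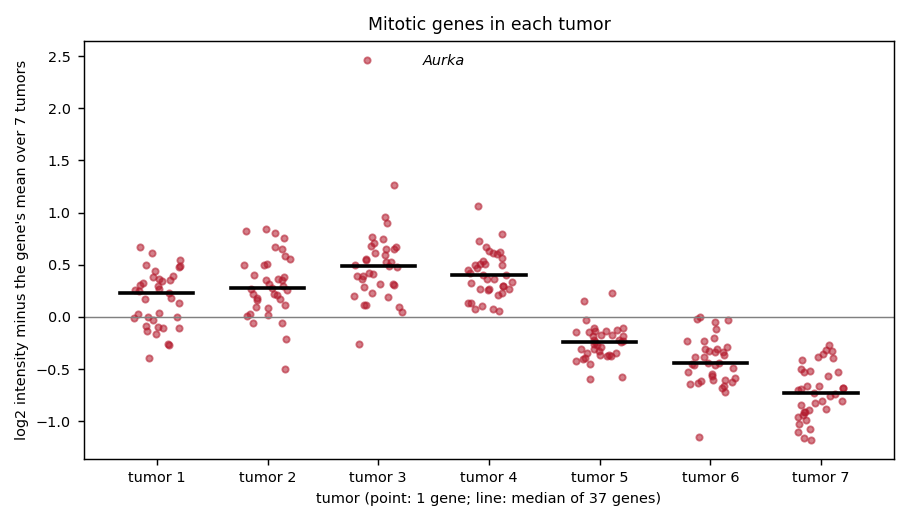
Log2 intensity of each member in each tumor minus that member's mean over the 7 tumors (points), with the median over the 37 members as a line. The medians are above 0 in tumors 1 to 4 (0.23, 0.28, 0.49 and 0.40) and below 0 in tumors 5 to 7 (-0.24, -0.45 and -0.73), and Aurka in tumor 3 lies above all other points.

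Markers of other cells also differed between tumors and normal tissue. By the limma test, 18.6% of all genes were higher and 17.5% lower in tumors than in aorta. All 10 endothelial markers were higher in tumors than in aorta, with a median list mean of 10.6 in tumors and 8.66 in aortas. Macrophage markers were higher for 11 of 12 (median list mean of 8.41 in tumors and 6.87 in aortas) and neutrophil markers for 7 of 8 (5.42 to 8.37 in tumors and 4.66 to 4.81 in aortas). Other lists were lower in tumors than in aorta, among them heart muscle (7 of 8 markers, median difference -4.46), brown adipocyte (7 of 7, -4.50), general adipocyte (5 of 7, -2.15), smooth muscle (5 of 8, -0.80) and B cell markers (7 of 7, -0.79). The aortas carried a heart muscle signal (median list mean of 5.93 in tumors and 9.87 in aortas) and a brown adipocyte signal (5.54 in tumors and 10.8 in aortas). Against muscle, skeletal muscle markers were lower in tumors for 10 of 10, where 25.7% of all genes were lower. Skeletal muscle markers spread from 5.41 in tumor 5 to 10.1 in tumor 2, and brown adipocyte markers reached 8.61 in tumor 4 and 8.53 in tumor 5, with 4.93 to 5.96 in the other tumors. General adipocyte markers read 9.26, 10.8 and 10.3 in tumors 4, 5 and 6, with 6.62 to 7.57 in the other tumors. None of these lists placed tumors 1 to 4 all on one side of tumors 5 to 7. Full separation is a strict criterion, which cannot show whether a list follows the order of tumors in part. The part of these lists in the member values and in the order of tumors was not tested. Without tumors 4 and 5, the highest in brown adipocyte markers, all 37 members passed against aorta and 36 against muscle. Tumor 6, also high in general adipocyte markers, stayed in that fit. With tumors 3, 5 and 6 alone, which had the lowest skeletal muscle markers, 36 passed against aorta and 37 against muscle. The share of all genes that passed in either fit is not given here. Both subsets were chosen after seeing the data.

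Most of the remaining genes of the pathway were higher in tumors too, with a lower median difference than the members. Of 69 other G2/M genes 66 were measured. In tumors against aorta 59 were higher (18.6% of all genes) and 1 lower (17.5% of all genes), with a median difference of 1.20. Against muscle 58 were higher (25.3% of all genes) and 1 lower (25.7% of all genes), with a median of 1.17. The largest difference was in Ube2c, the ubiquitin-conjugating enzyme of the anaphase-promoting complex, which averaged 9.05 ± 0.74 in tumors and 5.79 ± 0.35 in aortas. Knl1, a kinetochore scaffold (7.35 in tumors, 5.02 in aortas), Cks2, a small partner of the mitotic kinases (8.12 in tumors, 5.81 in aortas), and Racgap1, the partner of Kif23 in centralspindlin (7.96 in tumors, 5.84 in aortas), followed, with the GTPase-activating protein gene Arhgap11a and the spindle protein gene Ckap2. The single gene that was lower was Pttg1, which encodes securin, the inhibitor of separase that is destroyed at anaphase. Pttg1 averaged 6.66 in tumors, 7.61 in aortas, 7.79 in quadriceps and 7.92 in sternocleidomastoid, a difference of -0.95 ± 0.12 from aorta (limma adjusted p = 2.7e-06) and -1.20 ± 0.10 from muscle (adjusted p = 2.66e-09). Cenpw, Ncapd3, Ncaph2, Spc24, Zw10 and Zwint did not pass against aorta, and Bub3, Cenpw, Kifc1, Lin9, Ncapd3, Ncaph2 and Spc24 did not pass against muscle. The order of tumors was shared in part. Tumors 1 to 4 all lay above tumors 5 to 7 for 37 of the 66 genes (56.1%), against 4.67% of all genes, with a median difference of 0.52.

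The anaphase-promoting complex, the ubiquitin ligase that ends mitosis and whose subunits are also made in resting cells, moved in both directions. The 13 subunits and activators counted here leave out the activator Cdc20. That gene is a member and was 2.93-fold higher in tumors than in aorta and 2.76-fold higher than in muscle. Of the 13, 6 were higher (18.6% of all genes) and 2 lower (17.5% of all genes) in tumors than in aorta. Their median difference was 0.30, and none of the 13 was at least 2-fold higher. The subunit Anapc13 was lower, at 8.51 ± 0.38 in tumors and 10.1 ± 0.09 in aortas (-1.61 ± 0.15, limma adjusted p = 9.32e-08), as was Cdc26 (-0.77 ± 0.11, adjusted p = 1.03e-05). Fzr1, the late-mitotic activator Cdh1, was higher by 0.65 ± 0.10 and the core subunit gene Anapc2 by 0.60 ± 0.08, with Cdc16 at 0.60 and Anapc4 at 0.49. The 5 others, Anapc10, Anapc11, Anapc7, Cdc23 and Cdc27, had differences of 0.07 to 0.30 that did not pass. Against muscle 5 were higher (25.3% of all genes) and 4 lower (25.7% of all genes), the lower ones being Anapc5 (-1.21), Anapc11 (-0.36), Anapc13 (-1.47) and Cdc26 (-1.02). Tumors 1 to 4 all lay above tumors 5 to 7 for 3 of the 13 (4.67% of all genes).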

How the data were processed

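The authors deposited 1 value per probe set and array, read here as log2 intensity from their range of 1.59 to 13.8 and array medians of 5.35 to 5.48, since the labels state no scale. Partek 6.6 appears in the submitters' processing notes. Neither background correction nor normalization is given in the sources used here. The number of arrays limits the precision. Of 41345 probe sets, 23521 named a single gene in the platform annotation, 1814 several and 16010 none. The single-symbol probe set with the highest mean over 19 arrays was used, for 22180 genes.

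A model with a mean for each group covered all arrays (limma 3.58.1 under R 4.3.3, moderated two-sided test). P-values were adjusted over all genes by Benjamini-Hochberg, and 0.05 was the threshold. The fit was tested on simulated data. Tables and figures used Python 3.11.15, pandas 2.3.3 and matplotlib 3.10.9. Motifs were searched on both strands of RefSeq promoter windows, and gene order was taken from RefSeq GRCm38.p6. Members and lists were chosen with earlier results of these data known. All measured members are named. Of the other 2 lists, the 6 largest differences from aorta past the threshold without overlap, and the genes that failed a tumor comparison, are named. Groups come from the labels, which carry no replicate numbers, and samples were numbered within each group in the order listed. The alternatives were other scalings, variance models, samples, thresholds, probe set means, the muscles taken singly and each array left out in turn.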

Additional observations from a re-analysis of the deposited data

Results flagged for a closer look

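Within each group of 4 to 7 samples, the highest and the lowest value of each member were compared with the rest by Dixon's test. Chance flags about 1 in 20 groups, and 4 of the 148 groups tested were marked, 2 of them among tumors. Aurka read 10.00 in tumor 3 and 7.61 in the next tumor, and its difference from aorta was 1.84 with tumor 3 and 1.43 without it. Cdc25c read 6.79 in tumor 2 and 6.07 in the next tumor. In sternocleidomastoid 1 Incenp read 5.05, against 4.89 in the next highest sample of that muscle. Kif20a read 4.47 in sternocleidomastoid 4, against 4.93 in the next lowest.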

How the results depend on the processing

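No paired analysis was possible because the labels do not say which samples came from the same animal. Of the 37 members, 36 kept their call against aorta and 36 against muscle in every alternative in which they were tested, the exceptions being Cenpa against aorta and Aurka against muscle. Leaving out each array in turn gave 36 to 37 members against aorta, 36 to 37 against muscle, 2 to 6 between aorta and muscle, 0 between the muscles, and 58 to 63 and 59 to 60 of the other G2/M genes. Shares of all genes in the alternative fits are not given here. Without dim genes, 13 members remained testable and 13 passed in each tumor comparison, and 25 and 24 of 28 other G2/M genes passed against aorta and muscle. This falls below the 37, 37, 60 and 59 of the full table because fewer genes were tested. The filter used each gene's mean over all arrays, tumors included, so genes dim in normal tissue could remain through their tumor values. The members left had median differences of 2.19 from aorta and 2.75 from muscle, where all members had 1.85 and 1.92. These passes therefore do not show whether the calls hold apart from dim signals in normal tissue. The 3 members that differed between aorta and muscle became 5 with housekeeping centring or without tumor 7, 6 without tumor 3, 7 with 1 variance per group, 9 with the compared groups only and 1 at a minimum of 2-fold. Aurka against muscle did not pass with median centring (0.78, adjusted p = 0.0651), quantile normalization (0.73, adjusted p = 0.0842), trend and robust options (adjusted p = 0.0568), the compared groups only (adjusted p = 0.0741) or without tumors 4 and 5 (adjusted p = 0.0659), and the cause was not tested. Housekeeping centring moved the median of all genes by 0.13 against aorta and 0.18 against muscle, and the members' medians were then 1.99 and 2.10. No called member changed sign. Unstated normalization, 4 to 7 samples a group and dim signals in normal tissue limit these values.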

Other observations

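Of the 66 other G2/M genes measured, 3 were higher in aorta than in muscle, where 17.0% of all genes were, and 4 were lower, where 15.3% of all genes were. Between the muscles 0 were higher and 1 was lower, where 0.198% of all genes were lower. Fam83d, which encodes a spindle protein, was the single gene of its list that differed between the muscles, at 5.27 in sternocleidomastoid and 6.91 in quadriceps (-1.64 ± 0.32, limma adjusted p = 0.0203), where tumors averaged 7.23 and aortas 5.39. Between aorta and muscle, Cks2 (0.70, adjusted p = 0.0398), the condensin genes Ncapg2 (0.60, adjusted p = 0.0105) and Smc4 (0.51, adjusted p = 0.0409) were higher in aorta. Bub3 (-0.40), Iqgap3 (-0.48), Kif18a (-0.44) and Spag5 (-0.58) were lower in aorta than in muscle, with adjusted p of 0.00913 to 0.0486. Of the 13 anaphase-promoting complex genes, 1 was higher in aorta than in muscle by limma (17.0% of all genes) and 4 lower (15.3% of all genes). Anapc1 was higher (0.32), and Anapc11 (-0.43), Anapc4 (-0.46), Cdc16 (-0.32) and Anapc5 were lower. Anapc5 had means of 9.49 in aorta, 11.2 in quadriceps and 10.9 in sternocleidomastoid (-1.58, limma adjusted p = 7.68e-12).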
